A study of Emiliania huxleyi with 18 samples.

Results

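The genes described here are 100 well-expressed genes of the coccolithophore Emiliania huxleyi. With libraries scaled by TMM factors, their RNA stayed nearly level over each control age step and when weak UV light was added. How level they look depends on that scaling, as described below. The genes were chosen by their measured values, from 41734 genes. A gene needed at least 500 UMIs in all (unique molecular identifiers, tags that count each captured RNA molecule once), which 14399 genes had, and a mean level of at least 6 on the log2 CPM scale (CPM, the scaled count as a share of the library; the minimum equals 64 CPM), which left 2829 well-expressed genes. It also needed 5 differences between group means below 0.15 on the log2 scale (1.11-fold): UV minus control on days 7, 10 and 13, and both age steps of the control cultures, day 10 minus day 7 and day 13 minus day 10. All 5 limits were met by 110 genes, and the 100 with the smallest standard deviation over the libraries were kept. The age limits bound each step alone, and steps of the same sign add up. From control day 7 to day 13 the TMM-scaled differences of the 100 ran from -0.29 to 0.26, and 74 lay within 0.15. From UV day 7 to day 13 they ran from -0.36 to 0.33.

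RNA was measured by MARS-seq2.0, a method that counts RNA by UMIs, in axenic (bacteria-free) cultures of strain CCMP3266. The 18 libraries form 6 groups of 3: control cultures under ordinary growth light and UV cultures, each sampled on days 7, 10 and 13. All cultures were unshaken 50 ml volumes of artificial sea water with L1 nutrients lacking silicate, inoculated to 330 cells per ml and kept at 18 °C, with visible light of 130 µmol photons per m2 per s for 16 h and darkness for 8 h. UV cultures were also lit by a UV lamp for 14 h daily, with intensities in W per m2 of 0.5 (UV-A), 0.07 (UV-B) and 0.026 (UV-C). The labels give triplicates without saying whether each is a separate flask or which flasks were sampled on several days, so p-values measure only the spread between these libraries. Library totals ran from 1060640 to 9216603 UMIs. Replicates 1 and 2 of both day 10 groups had 1124600 to 1699470 UMIs and a UMI-to-read ratio of 0.870 to 0.876, which was 0.700 to 0.795 in the remaining 14.

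Emiliania huxleyi is a unicellular marine alga that covers itself in calcite scales and forms large blooms. In a closed culture its cells pass from growth to a stage in which nutrients run short, and the RNA levels of many genes change on the way. Genes whose RNA keeps a constant share of the pool through such changes are used in many organisms as reference genes for quantitative PCR, and classic choices encode cytoskeleton proteins, translation factors and ribosomal proteins. The deposited tables pair the members with numeric gene identifiers and a second identifier each, without names or descriptions, and 0 of the identifiers matched the reference gene table. Members are therefore given by identifier with no role, and none of the classic classes could be counted among them. In bulk RNA a level is a share of the pool, so neither the number of cells nor the RNA per cell can be read from it here.

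The age limits removed the most genes. Of the 2829 well-expressed genes, 672 (23.8%) lay within 0.15 between control days 7 and 10, and 985 (34.8%) between control days 10 and 13. The UV limits were met by 1596 genes (56.4%) on day 7, 1567 (55.4%) on day 10 and 1695 (59.9%) on day 13. Both age limits together were met by 282 genes (9.97%), all 3 UV limits by 756 (26.7%), and all 5 limits by 110 (3.89%). Another 463 genes missed a single limit, and 236 of these missed the control step from day 7 to day 10.

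The members covered much of the level range of well-expressed genes. Their mean level ran from 6.01 to 11.08 log2 CPM with a median of 6.73, beside 6.82 in the other 2729 well-expressed genes. Of the 100, 63 lay between 6 and 7 log2 CPM, 25 between 7 and 8, and 12 higher. The upper end was thinly filled, with 1 member above 10 log2 CPM (1%), a level that 3.81% of the other well-expressed genes reached. The total UMI count of a member was between 5126 and 179583, and the lowest count in any library was 55 UMIs, for G5386.

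**Figure D1:**
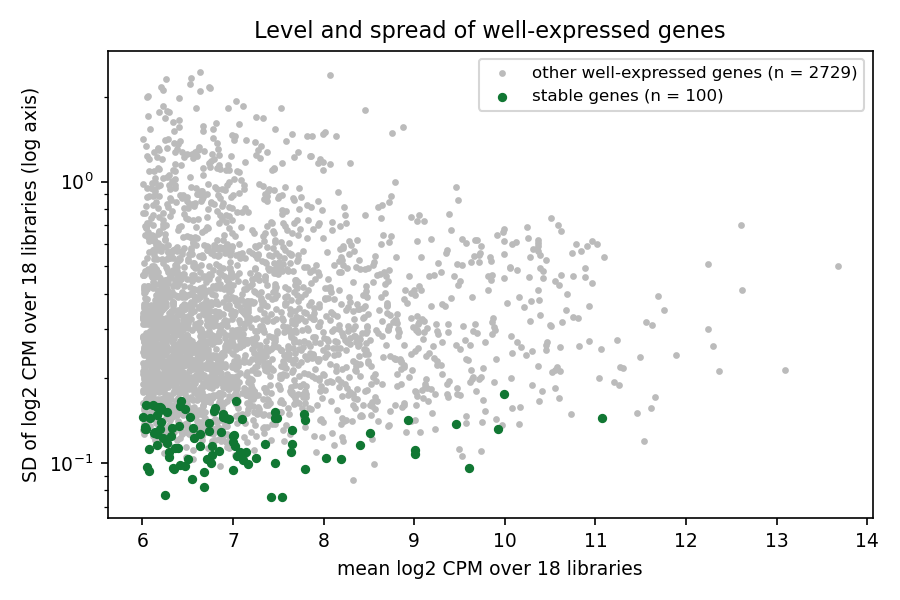
Each point is a well-expressed gene, with its mean level (log2 CPM) on the x axis and its standard deviation over the 18 libraries on a logarithmic y axis. The 100 members (green) lie along the lower edge, from 0.0759 to 0.176, at levels from 6.01 to 11.08, and the other 2729 genes (grey) reach 2.45.

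The member with the smallest spread was G5116. In control cultures it stood at 187, 194 and 182 CPM on day 7, at 184, 207 and 184 on day 10, and at 186, 186 and 168 on day 13. In UV cultures it stood at 200, 206 and 184 CPM on day 7, at 184, 179 and 188 on day 10, and at 177, 179 and 178 on day 13. The 3 UV day 13 libraries lay below all day 7 and day 10 libraries, the other groups overlapped, and the highest library was 1.23-fold above the lowest.

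G35231 followed closely, with 167, 175 and 169 CPM in control cultures on day 7, 182, 165 and 163 on day 10, and 182, 170 and 172 on day 13. Its UV cultures gave 185, 177 and 154 CPM on day 7, 162, 173 and 183 on day 10, and 172, 168 and 155 on day 13. All 6 groups overlapped, and the lowest and the highest library were both UV day 7. The third smallest spread was that of G8026, with 69.1 CPM in its lowest library, a median of 76.4 and 82.5 in its highest, a span of 1.19-fold that was the narrowest of the 100 members. G36169, G40340 and G8317, the next in order, had medians of 102, 92.9 and 102 CPM and spans of 1.24-, 1.26- and 1.27-fold.

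Over all members the span from the lowest to the highest library ran from 1.19- to 1.70-fold, with a median of 1.37. It was under 1.3-fold in 20 members and over 1.5-fold in 17. The widest span belonged to G1763, at 69.1 CPM in UV day 10 replicate 1 and 117 in UV day 7 replicate 1, both of them shallow libraries. G1763, G3510 and G3797 each have a second identifier that another gene also carries, so their counts are uncertain if reads were divided between copies.

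The 6 most abundant members were G1548, G34422, G9984, G23583, G22235 and G33072, with means from 11.08 down to 9.01 log2 CPM. G1548 stood in control cultures at 2368, 2475 and 2169 CPM on day 7, 2042, 2381 and 2367 on day 10, and 2325, 2072 and 1913 on day 13. Under UV it stood at 2095, 2108 and 2165 CPM on day 7, 2233, 1721 and 2420 on day 10, and 2187, 1805 and 2187 on day 13. On day 7 all 3 UV libraries lay below all 3 control libraries, on days 10 and 13 the groups overlapped, and its extremes were UV day 10 replicate 2 and control day 7 replicate 2. G34422, the second most abundant, also had the largest spread of all members (SD 0.176), from 726 CPM in UV day 13 replicate 2 through a median of 1041 to 1192 in UV day 10 replicate 3. At the other end, G2500, G41476 and G24325 had medians of 65.4, 65.4 and 63.6 CPM and spans between 1.47- and 1.52-fold.

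The spread of the members was compared with what counting alone gives. The pooled standard deviation within groups had a median of 0.117 in members and 0.144 in the other well-expressed genes, and counting noise at these depths had a median of 0.0820 and 0.0808. The variance within groups was a median of 2.14 times the counting variance in members, beside 3.63 times in the others. In 11 members it was below the counting variance, with the lowest ratio, 0.495, in G36169. In 29 members it was over 3 times the counting variance, and the ratio reached 67.8 in G1548, 38.9 in G34422 and 21.5 in G22235. For these abundant genes the spread between replicates was many times the counting noise, while for G2500, G41476 and G24325, at the lowest levels, the ratios were 1.33, 1.31 and 2.31. Since the spread over libraries chose the last 100 of 110 genes, these values describe the members and test nothing.

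The 5 differences that chose the members were small by construction. The largest of the 5 was 0.12 or more in 57 members and below 0.10 in 19, and it was smallest in G27458, at 0.07. It fell on the control step from day 7 to day 10 in 32 members, on the UV difference of day 10 in 23, of day 13 in 19 and of day 7 in 12, and on the control step from day 10 to day 13 in 14. Of the members, 22 rose at both control steps, 28 fell at both, 23 went up and then down and 27 down and then up, as signs of differences that were all below 0.15.

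The members nearest to a limit were G5386 for UV on day 7, G7427 for UV on day 10, G8600 for UV on day 13, G8317 for the first control step and G12450 for the second. Their differences rounded to -0.15, 0.15, -0.15, 0.15 and -0.15, each still inside. The nearest genes that missed only the same limit were G4001, G31778, G7472, G4687 and G6461, which rounded to 0.15, 0.15, -0.15, 0.15 and -0.15 from outside. The limit on spread fell between G34422 (SD 0.176) and G36873 (SD 0.179), and the limit on level between G24325 (6.01) and G24694 (5.99, not a member). The genes on either side of each limit thus had values of nearly equal size, although those for UV on day 7 had opposite signs.

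No member was called in these 5 comparisons by edgeR's quasi-likelihood test at an adjusted p below 0.05, and none had an unadjusted p below 0.05. Limma-voom and DESeq2 also called 0 members in each. Among all 18196 genes tested, 1.92% were called for UV against control on day 7, 2.53% on day 10, 1.93% on day 13, 35.6% for control day 10 against day 7 and 26% for control day 13 against day 10. Among the well-expressed genes alone the shares were 6.08%, 6.54%, 4.35%, 54.8% and 38.8%. The rule used these contrasts, so the counts of 0 say nothing new of the members. No member was called for a UV effect that changed with the day (0 also at an unadjusted p below 0.05, edgeR; 3.26% of all genes called), a test built from the same 3 UV differences. By the authors' deposited table no member was called in the 5 comparisons, where it called 1.52%, 1.97%, 1.6%, 25.6% and 18.2% of genes, and its log2 fold change lay outside 0.15 for 3, 2, 0, 21 and 4 members.

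The 95% intervals from limma show roughly how closely 3 libraries a group fix each difference. Their width for a gene came from a single variance over all 18 libraries and was the same in every comparison. It made no allowance for the shallow day 10 libraries. An interval reached a median of 0.22 to either side of its estimate on the log2 scale, from 0.18 to 0.27 over the members. A member with an estimate near 0 could thus still differ by more than the 0.15 that chose it. For all 100 members each of the 5 intervals lay within 1.5-fold, and the farthest bound was 0.42, or 1.33-fold, around estimates that the rule had kept small. Of the other well-expressed genes, 901 had all 5 intervals within 1.5-fold.

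The signs of the small differences were uneven on day 13. The rule used these differences and all members share the same libraries, so the counts of signs are a description and test nothing. UV minus control was negative in 57 members on day 7, in 45 on day 10 and in 74 on day 13, with medians of -0.01, 0.02 and -0.05. Over the 2829 well-expressed genes the medians were -0.09, -0.03 and -0.01, and 46.5% were higher under UV on day 13, beside 26% of the members. UV day 13 replicate 2 had the lowest member levels of all libraries, with a median deviation of -0.06 from each gene's mean. Without that library 64 members were lower under UV on day 13 and the median was -0.04. Under UV, 23 members were lower on all 3 days and 7 higher on all 3. Of the 2829 well-expressed genes, 652 were lower and 281 higher on all 3 days, so the members' counts lay near those of well-expressed genes at large.

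**Figure D2:**
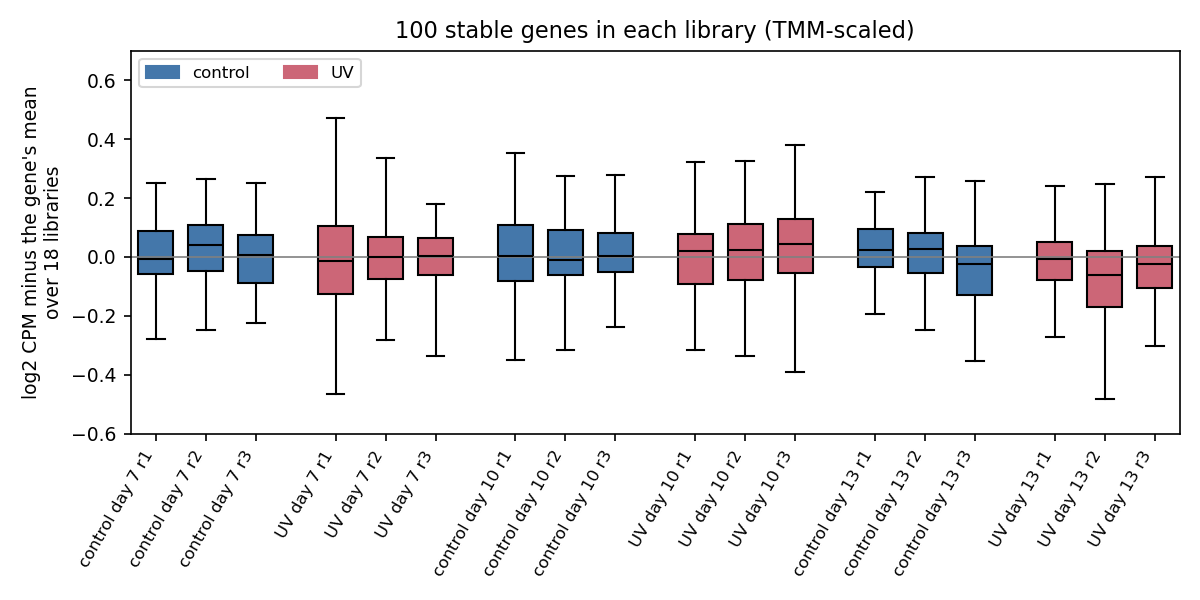
Each box shows the 100 members in a library as log2 CPM minus the gene's mean over the 18 libraries (line, median; box, from the lower to the upper quartile; whiskers, lowest and highest member), with control libraries in blue and UV libraries in red and r1 to r3 for the replicates. Medians run from -0.06 in UV day 13 replicate 2 to 0.04 in UV day 10 replicate 3, and whiskers are widest in UV day 7 replicate 1, the shallowest library.

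The extremes of single members were spread over the libraries. UV day 13 replicate 2 was the lowest library for 15 members, followed by UV day 7 replicate 1 and UV day 10 replicate 2 with 10 each. The highest library was UV day 7 replicate 1 for 13 members, and control day 10 replicate 1 and UV day 10 replicate 3 for 12 each. UV day 7 replicate 1, control day 10 replicate 1 and UV day 10 replicate 2 are among the 5 shallowest libraries, with 1060640, 1124600 and 1648083 UMIs. The part of depth in these extremes was not tested.

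The steps with age in the UV cultures were not themselves limits of the rule, which only bounds them to less than 0.45 as the sum of 3 limits. Between UV days 7 and 10 the difference ran from -0.23 to 0.29 over the members, with 21 outside 0.15. Between UV days 10 and 13 it ran from -0.36 to 0.27, with 25 outside 0.15 and 72 of 100 members lower on day 13. Of the well-expressed genes 1910 of 2829 were lower at that step, with a median of -0.13 beside -0.05 in the members, so the members' count lay near that of well-expressed genes at large. Without UV day 13 replicate 2, 64 members were lower, and without UV day 10 replicate 3, 63 were. Both steps share the day 10 libraries, so a high or low day 10 value enters them with opposite signs.

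**Figure D3:**
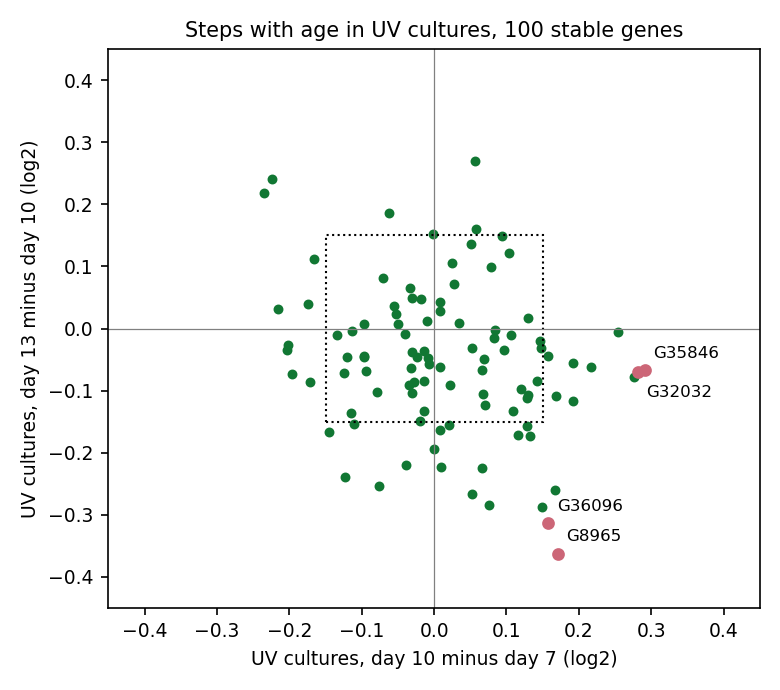
Each point is a member, with its log2 difference between UV days 7 and 10 on the x axis and between UV days 10 and 13 on the y axis; the dotted square marks 0.15 to either side. The 4 members called by edgeR (red, labelled) lie outside the square, G32032 and G35846 at 0.28 and 0.29 on the x axis and G36096 and G8965 at -0.31 and -0.36 on the y axis.

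From UV day 7 to day 10, edgeR called 2 members higher and 0 lower at an adjusted p below 0.05, with 3 at an unadjusted p below 0.05. The background was 18.2% of all genes called higher, 19.8% lower and 37.9% in either direction, and of well-expressed genes 23.6% higher and 57.5% in either direction. G32032 rose from 329, 314 and 350 CPM to 407, 438 and 365, a log2 fold change of 0.27 ± 0.10 (SE) with an adjusted p of 0.0388. G35846 rose from 160, 173 and 139 CPM to 195, 186 and 196, a log2 fold change of 0.29 ± 0.11 (SE) with an adjusted p of 0.0405 by edgeR. In both genes the 3 day 10 libraries were all higher than the 3 day 7 libraries. The control cultures of the same days overlapped, but the rule had kept that control step below 0.15. The overlap in control cultures therefore cannot be set against the step in UV cultures.

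From UV day 10 to day 13, edgeR called 2 members lower and 0 higher, with 8 and 2 at an unadjusted p below 0.05, against 10.9% of all genes called lower, 9.14% higher and 20% in either direction. Of well-expressed genes 28.1% were called lower and 35.7% in either direction. G8965 fell from 76.2, 86.4 and 82.3 CPM to 60.7, 65.2 and 64.1, a log2 fold change of -0.36 ± 0.11 (SE) with an adjusted p of 0.0148. G36096 fell from 132, 146 and 155 CPM to 124, 111 and 112, a log2 fold change of -0.32 ± 0.11 (SE) with an adjusted p of 0.0259 by edgeR. Their groups did not overlap. Control cultures gave 71.9, 71.6 and 81.6 CPM on day 10 and 73.8, 68.9 and 68.2 on day 13 for G8965, which overlapped. For G36096 control cultures gave 125, 141 and 136 CPM on day 10 and 126, 120 and 120 on day 13, which also overlapped. The rule had kept this control step below 0.15 as well, so neither overlap can be set against the step in UV cultures.

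All 4 calls lay close to the threshold and were lost under several of 17 other settings. G32032 passed in 7 of the 17, with adjusted p from 0.00209 to 0.554, and G35846 in 8, from 0.00488 to 0.210. G36096 passed in 8, from 0.00594 to 0.265, and G8965 in 11, from 0.00965 to 0.386. The direction held in every setting run for these genes. The call for G32032 was lost without UV day 7 replicate 1 or 2 (adjusted p 0.0649 and 0.151, edgeR) and without UV day 10 replicate 1 or 2 (0.0564 and 0.157). That for G35846 was lost without UV day 7 replicate 3 (0.210, edgeR) and without UV day 10 replicate 1 or 3 (0.0602 and 0.0761). G36096 was lost without UV day 10 replicate 2 or 3 (0.0553 and 0.112, edgeR) and UV day 13 replicate 2 or 3 (0.114 and 0.101), and G8965 without UV day 10 replicate 2 (0.0553) and UV day 13 replicate 1 (0.0639).

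No member was called in the authors' deposited table from UV day 7 to day 10 (lowest adjusted p 0.0602) and 27.4% of genes. From UV day 10 to day 13 the authors' deposited table called 3 members, G36096 (adjusted p 0.0122), G8965 (0.0167) and G1879 (0.0494), and 14.4% of genes. G1879 had an adjusted p of 0.0518 by edgeR here, on the other side of the threshold.

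How level the members look depends on the scaling of the libraries. As a share of all UMIs, the 100 members together rose in control cultures from 1.56% ± 0.0215 (SD, n = 3) on day 7 to 1.77% ± 0.0166 on day 10 and 1.98% ± 0.0294 on day 13. In UV cultures the share was 1.67% ± 0.0125 on day 7, 1.81% ± 0.0848 on day 10 and 1.94% ± 0.0513 on day 13. The day 13 libraries of either arm were all above the day 7 libraries, and the control ratio of day 13 to day 7 was 1.27. TMM factors, which edgeR sets on the assumption that most genes do not change between libraries, rose alongside, from a control mean of 0.853 on day 7 to 0.981 on day 10 and 1.13 on day 13. After TMM scaling the members' sum was 18517 ± 443 CPM (SD, n = 3) in control cultures on day 7, 18304 ± 214 on day 10 and 17900 ± 799 on day 13, which overlapped.

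**Figure D4:**
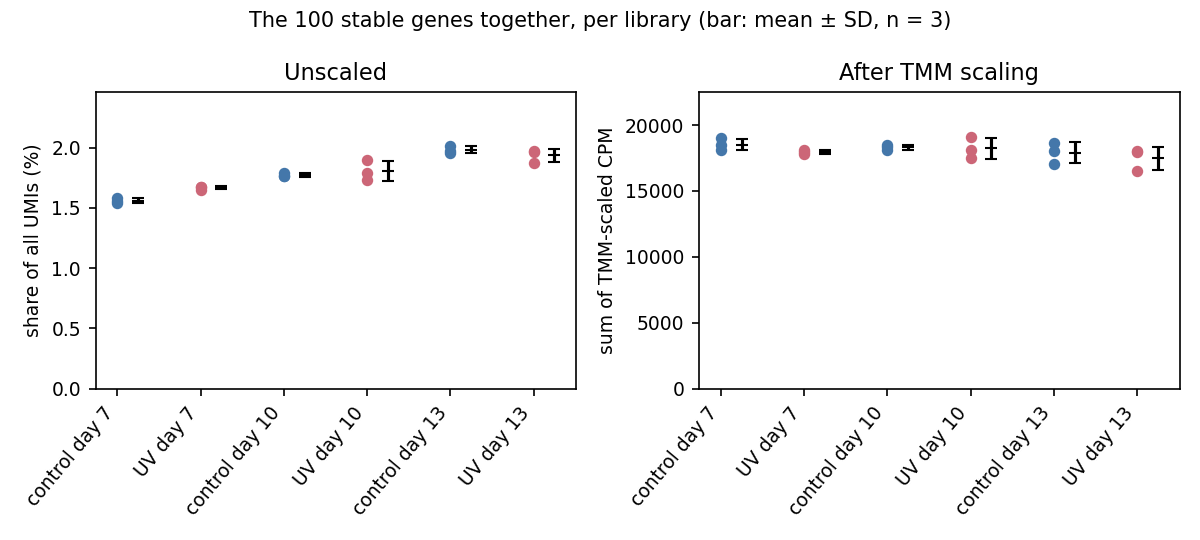
Points are libraries and bars the mean ± SD of 3, for the 100 members together, as a share of all UMIs (left, %) and as a sum of TMM-scaled CPM (right). The unscaled share rises with age, from 1.56% to 1.98% in control cultures, and the scaled sum stays between 16495 and 19064 CPM in all libraries.

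With library totals in place of TMM factors, the median member gained 0.39 in log2 level between control days 7 and 13. The median of all 14399 genes with at least 500 UMIs gained 0.46. Over the well-expressed genes that median was 0.20. With TMM the same medians were -0.01 for the members, 0.07 for the 14399 genes and -0.20 for the well-expressed genes. Of the 100 members, 8 met the limits with library totals. With median-of-ratios factors 79 met them, with upper-quartile factors 31, and with TMM on read counts 67. Thinning every library to the depth of the shallowest left 41. Leaving out a single library left between 60 and 93 members within the limits, fewest without control day 7 replicate 3 (60), control day 10 replicate 2 (60) or control day 10 replicate 3 (62).

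A ratio between 2 members does not change with the scaling. Over the 4950 pairs, the standard deviation of the log2 ratio over 18 libraries had a median of 0.171. It was lowest, 0.0690, for G12873 and G27969, and highest, 0.293, for G2793 and G12450. The lowest of the 4950 values was below the smallest spread of any of the 100 members by itself, 0.0759. The medians went the other way, at 0.171 for pairs and 0.125 for members by themselves.

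A shared pattern that separated day 7 from day 13 remained within the limits. The UMI-to-read ratio also separated these days, at 0.700 to 0.735 on day 7 and 0.770 to 0.795 on day 13. TMM factors separated them too, at 0.823 to 0.943 on day 7 and 1.10 to 1.17 on day 13. From these days alone, age, the ratio and the factors cannot be told apart. On day 10 the ratio was 0.870 to 0.876 in the 4 shallow libraries and 0.707 (control) and 0.716 (UV) in replicate 3. The part of the ratio in the pattern was not tested. The first principal component of the members' centred levels held 21.5% of their variance, and all 6 day 7 libraries scored from -0.94 to -0.40 while all 6 day 13 libraries scored from 0.17 to 1.18. Day 10 libraries scored from -0.11 to 0.30, overlapping the lower day 13 scores, except UV day 10 replicate 3, which at -0.63 lay among day 7. The second component held 14.0% and split replicates within day 10. The 4 shallow day 10 libraries scored from -0.94 (control replicate 1) to 0.08 (control replicate 2). The deeper replicate 3 libraries scored 0.75 (control) and 0.87 (UV). The part of depth in this split was not tested.

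To see how the rule carries over to libraries it did not use, it was applied to 2 replicates of each group and the 5 differences were read in the replicate left out. This gave 86, 100 and 50 genes when replicates 1, 2 and 3 were left out, of which 42, 53 and 38 belong to the 100 members, so the values describe genes chosen by the rule and not the 100 members themselves. In the replicate left out, the median absolute difference was 0.13, 0.15 and 0.10 in the chosen genes, beside 0.22, 0.23 and 0.17 in all well-expressed genes. All 5 differences stayed below 0.15 in 1 of 86 genes (1.16%), 6 of 100 (6%) and 13 of 50 (26%). The same shares over all well-expressed genes were 1.12%, 0.959% and 3.26%.

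**Figure D5:**
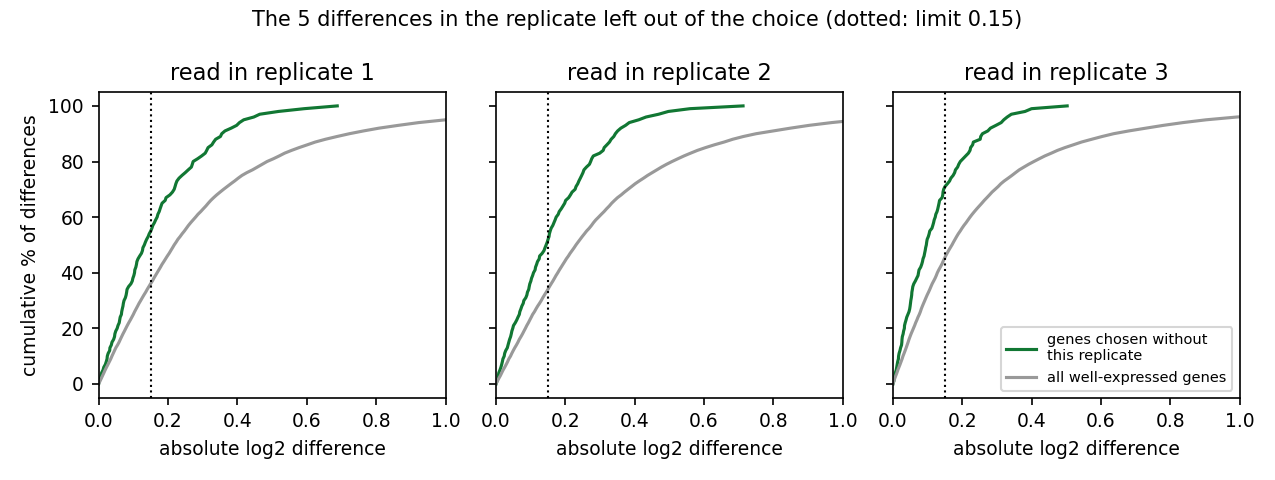
Each panel reads the 5 absolute log2 differences (x axis) in the replicate left out of the choice, as a cumulative percentage of differences (y axis), for the genes chosen on the other 2 replicates (green) and all well-expressed genes (grey); the dotted line marks 0.15. The green curve lies to the left of the grey one in all 3 panels, with medians of 0.13, 0.15 and 0.10 against 0.22, 0.23 and 0.17.

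For the control step from day 7 to day 10, 41.9%, 51% and 62% of chosen genes stayed within 0.15 in replicates 1, 2 and 3, beside 20.4%, 19.4% and 26.8% of all well-expressed genes. For the step from day 10 to day 13 the shares were 57%, 49% and 58%, beside 29.4%, 28.3% and 29.5%. In both control steps the chosen genes had the larger share in all 3 replicates. For UV on day 7 they were 53.5%, 61% and 90%, beside 39.2%, 43.2% and 60.4%. For UV on day 10 they were 51.2%, 42% and 74%, beside 42.1%, 40.4% and 51.1%, and the pair nearest to each other was that of replicate 2. For UV on day 13 they were 70.9%, 56% and 70%, beside 49.4%, 38.2% and 59.3%. A replicate left out gives 1 library a group, so these differences carry the full noise of single libraries, and replicates 1 and 2 hold the shallow day 10 libraries. TMM factors were set on all 18 libraries together, so the library left out still entered the scaling.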

How the data were processed

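The deposited UMI counts and read counts per gene are raw counts with no scaling by the authors, per the file headers and the values; the deposited table of comparisons holds the authors' log2 fold changes and adjusted p-values. The authors' comparisons are labelled as DESeq2 on UMI counts. Which aligner, gene models, genome build and DESeq2 settings the authors used is not given in the sources used here. Per-sample columns of the deposited tables left unused numbered 54. Members and lists were chosen with earlier results of these data known.

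From the UMI counts, rows with at least 500 UMIs were scaled by TMM (edgeR 4.0.16, R 4.3.3) to log2 CPM with a prior count of 2, and the rule was applied to group means. Calls came from edgeR's quasi-likelihood F-test with 1 mean per group over all 18 libraries, filterByExpr (minimum count 10, total 15; 18196 genes), robust fitting and Benjamini-Hochberg adjustment, threshold 0.05. Intervals (95%) came from limma 3.58.1 with a mean-variance trend. DESeq2 1.42.0, limma-voom, other scalings, prior counts, limits, read counts, thinning and left-out libraries were alternatives. Counting noise is that of Poisson counts. The scripts were tested on simulated data. Same-numbered replicates were not treated as pairs.

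Named genes are the 6 members of smallest and 4 of largest spread, the 6 highest and 3 lowest in level, those next to each limit with the nearest gene outside, members with a second identifier carried by another gene, and members called in a UV step. G27458, G1879, G36873, G24694 and the pairs of members with extreme ratios were named after their values were seen.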

Additional observations from a re-analysis of the deposited data

How the results depend on the processing

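Of the 110 genes meeting the rule, the count was 70 with library totals only, 21 with the limit at 0.10, 288 at 0.20, 41 with a mean of at least 7 and 227 with at least 5, and between 49 and 114 when a library or a replicate number was left out. Of the 100 members, 8 met the limits with library totals, 31 with upper-quartile scaling, 19 at 0.10, 37 with a mean of at least 7, 41 at equal depth, 61 with only replicates 1 and 2 on day 10, 47 with only replicate 3, and 38 to 93 with a library or replicate number left out. The changes with the limit and the level follow from those settings; for the others the cause was not tested. Taking library totals over all rows, chosen after seeing the data, gave 109 genes. Called genes for UV against control on day 7 numbered 349, and 117 with library totals (82 higher and 35 lower, against 36 and 313), 770 without the low-count filter, 197 at equal depth, 556 with only the 6 libraries compared, and 72 to 611 with any of the 6 libraries left out. On day 10 they numbered 460, and 724 without the filter, 278 at equal depth, 53 with only replicates 1 and 2 and 229 with only replicate 3 on day 10 (both chosen after seeing the data), and 183 to 498 with a library left out, moving past 1.5 times without UV replicate 3 or control replicates 2 or 3. On day 13 they numbered 351, and 592 without the filter, 140 at equal depth, and 129 to 445 with a library left out, moving past 1.5 times without UV replicate 2 or control replicates 1 or 2. At equal depth the age steps gave 3829 and 2708 calls in control and 4154 and 2182 in UV cultures, against 6474, 4737, 6903 and 3641. With library totals the control steps turned from 2758 higher and 3716 lower to 5526 and 2487, and from 2198 and 2539 to 4449 and 1837; the UV steps turned from 3303 and 3600 to 4444 and 2989, and from 1664 and 1977 to 3101 and 1248. That scaling called 32 and 17 members in the control steps and 8 in each UV step. Members called for UV against control stayed at 0 in every alternative run. In the control steps they were 0 in every alternative except library totals, read counts (1) and only replicate 3 on day 10 (2). With replicate block the day 7 UV calls numbered 535, other calls stayed within 1.5 times, and members called were unchanged in number; correlations of same-numbered libraries ran from -0.07 to 0.29, above 0.1 in 2 of 21 pairs, so the numbers were not taken as pairs. The median spread of members was 0.125 and ran from 0.119 to 0.177 over the alternatives, highest with library totals. Median interval half-widths ran from 0.22 to 0.24. The share ratio and the differences in left-out replicates moved by less than the spread between replicates in the alternatives run. Except for the share ratio, that spread was the members' median within-group SD of 0.117. It is of the same order as the values judged, so it cannot show them to be steady. Of 900 values for 25 named members, 24 moved by more than 1 such SD, a wide yardstick for differences chosen below 0.15. Members called in the UV steps numbered 0 to 8 over the alternatives. At these depths the within-group variance was below counting variance in 11 members.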
